A study of Mus musculus with 34 samples.

Results

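Macrophages sorted from the colonic lamina propria of mice titled IL10R were compared with those of mice titled CXhet in the first of 3 deposited tables. The members were the 6 libraries of that table, 3 of each title among the 34 libraries of the series, and all 9022 genes that it names, of which 6766 passed a filter on low values. Per the labels, both groups were untreated C57BL/6 mice of 6 to 7 weeks, and the sort kept CD45+ CD11b+ CD64+ cells with intermediate CD11c that lacked Ly6c and CD103. The series title describes the deficient macrophages as lacking the IL-10 receptor alpha chain. The labels used here state neither the alleles nor the deleted exon, the driver of the deletion, what CXhet stands for, or an allele that both groups share. Whether each library is a mouse of its own is likewise not stated, so a p-value below measures the spread between libraries, which may be technical.

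The IL-10 receptor pairs a ligand-binding alpha chain, encoded by Il10ra, with a beta chain shared by several cytokines. In macrophages it signals through the kinases JAK1 and TYK2 and the transcription factor STAT3, and it is known for restraining inflammatory transcription in the gut, where macrophages meet microbial products without pause. Interferon-gamma and the type I interferons signal through receptors of their own, and their targets form groups that can be followed in the same cells.

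Values are normalized reads per gene as deposited, without a correction for transcript length, so levels are compared between libraries and not between genes. The 3 values of a group are always in the order of libraries 1, 2 and 3. A change is the difference of the mean log2(value + 1.31) of IL10R minus CXhet, with its standard error (SE, n = 3 and 3), and it understates the change of low genes. A gene was called where the limma test across all tested genes gave a Benjamini-Hochberg adjusted p under 0.05, and rose or fell is written of called genes only. As the values come from sorted bulk cells, fewer cells of a type and less RNA per cell cannot be told apart.

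The libraries held 1458726, 2487074 and 1640235 reads of listed genes in CXhet and 1868050, 2102368 and 2042504 in IL10R. Il10ra, the targeted gene, stood at 689, 501 and 371 in CXhet, against 9.26, 361 and 65.9 in IL10R. At this 1 gene the library labelled IL10R 2 lay just under the lowest CXhet library and goes against its label. The change of -2.99 (SE 1.09) did not pass (limma adjusted p = 0.138). Without that library the change was -4.24 (limma adjusted p = 0.0094). Over all tested genes that library differed by more than 2-fold from CXhet 1, 2 and 3 in 21.7%, 20.5% and 26.6%. IL10R 1 did so in 8.48%, 8.68% and 11.9% and IL10R 3 in 11.5%, 10.7% and 12.8%. Every direction below includes the library labelled IL10R 2 unless it is said to be left out.

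Transcripts that define macrophages were abundant in all 6 libraries. Csf1r, the receptor for the macrophage growth factor CSF1, stood at 6281, 4734 and 3938 in CXhet and 4532, 6232 and 3950.4 in IL10R, and the complement chain C1qa stood at 19535, 14187 and 11395 in CXhet and 17339.7, 14389 and 14371 in IL10R. Both overlapped between the groups. The summed level of 40 epithelial marker genes was 1.09%, 1.72% and 2.46% of all signal in CXhet and 1.45%, 0.703% and 1.67% in IL10R, so it was lowest in the library labelled IL10R 2 and the groups overlapped. Of 31 listed markers of T and NK cells the table names Thy1 and Klrk1, which summed to 0.000793% to 0.00109% of signal in CXhet and 0.00466% to 0.00764% in IL10R. The 6 erythroid genes of the table summed to 0.00192% in CXhet 1 and 0.0204% to 0.103% in the other 5 libraries. With all libraries limma, edgeR and DESeq2 each called 0 of the 6, of which 4 had an unadjusted limma p under 0.05, and limma called 4 higher without CXhet 2.

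In all, 588 genes (8.69% of those tested) were called by limma, 309 higher (4.57%) and 279 lower (4.12%). In 32.4% of tested genes the 2 groups did not overlap (16.7% higher and 15.7% lower in IL10R), so a lack of overlap is common in these libraries. Of the called genes, 96 rose and 81 fell at least 4-fold, and 24 rose and 9 fell at least 16-fold. The 309 higher genes took up 2.96%, 2.69% and 2.42% of all signal in CXhet and 7.02%, 10.4% and 8.37% in IL10R. The 279 lower genes took up 5.98%, 7.18% and 7.25% in CXhet and 2.61%, 1.36% and 2.07% in IL10R. As the genes were called from these same libraries, the gap between groups follows from the choice, and the shares describe only its size. The count fell to 200 without CXhet 2 (136 higher and 64 lower), to 273 without CXhet 3 (167 of them higher) and to 295 without IL10R 3 (169 higher). It was 470 without the library labelled IL10R 2 (260 and 210), 543 without CXhet 1 and 588 without IL10R 1. In each of these 6 fits 167 of the 588 genes were called, 109 higher and 58 lower. A called gene named below is one of those unless a lost call is given or it lay below the filter. Where a gene list below has 0 called lower by limma, edgeR and DESeq2 also called 0 and 0 had an unadjusted p under 0.05, except for C-type lectins and pattern receptors (0 by edgeR, 1 by DESeq2 and 1 unadjusted), glycolysis (1 each), and MHC class II presentation and the respiratory chain (0 by edgeR and DESeq2 and 1 unadjusted in each list).

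**Figure D1:**
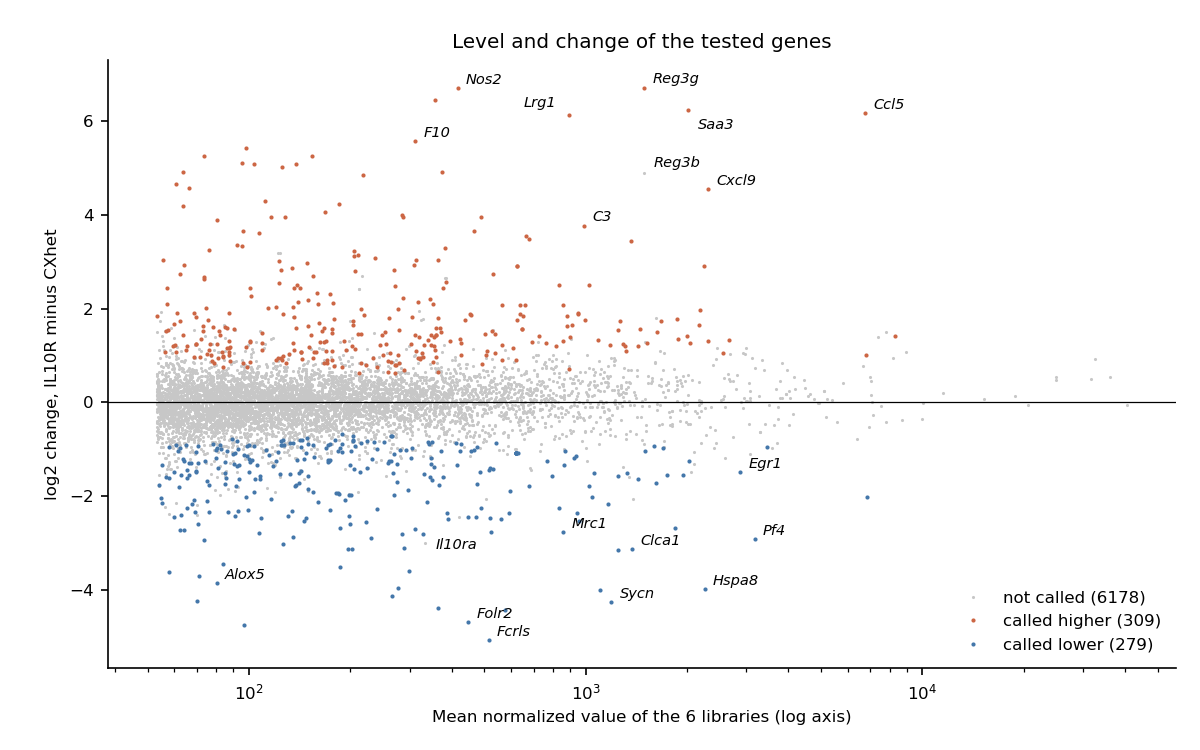
Change of each of the 6766 tested genes (y axis, log2, IL10R minus CXhet) against its mean normalized value over the 6 libraries (x axis, log). Orange points are the 309 genes called higher, blue points the 279 called lower and grey points the 6178 not called; Il10ra and Reg3b are grey, not called by this limma fit.

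Genes of the interferon-gamma response, from transcription factors to effectors, were among those that rose. Irf1, a transcription factor induced by interferon-gamma, stood at 926, 860.3 and 766 in CXhet and 2704, 2558 and 1985 in IL10R. The groups did not overlap, and it rose by 1.5 (SE 0.21, limma adjusted p = 0.00468). Irf7, which amplifies type I interferon, rose by 1.88 (SE 0.28). Batf2 rose by 1.82 and Nlrc5, the activator of MHC class I genes, by 2.10. Of 20 tested interferon regulatory and STAT factors, 9 were called higher and 0 lower by limma, 6 without CXhet 2 or CXhet 3 and 7 without the library labelled IL10R 2. Among the receptor chains, chosen after their values were seen, Ifngr1 stood at 485, 482 and 396 in CXhet and 530.3, 631 and 509.5 in IL10R, and Ifnar1 at 386, 272 and 207 in CXhet and 274, 184 and 207 in IL10R. Neither was called, and only Ifnar1 overlapped between the groups.

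Of 15 tested interferon-gamma-inducible GTPases, which attack the vacuoles of intracellular microbes, 12 were called higher and 0 lower, with a median change of 1.90 against 0.0045 over all tested genes. Left out in turn, the libraries gave 9 (without IL10R 3) to 15 higher, the latter without the library labelled IL10R 2. Gbp4 stood at 46.1, 43.8 and 34.7 in CXhet and 376, 356 and 375 in IL10R, with no overlap and little spread within IL10R, and rose by 3.12 (SE 0.18, limma adjusted p = 0.000187). Gbp2 stood at 159, 113 and 73.7 in CXhet and 1046, 1381 and 1299 in IL10R and rose by 3.47 (SE 0.28). Gbp5 rose by 3.33 (SE 0.35), from 23.9, 16.8 and 9.73 to 198, 133 and 188. Among the immunity-related GTPases, Igtp rose by 2.45 (SE 0.22) and Irgm1 by 1.87 (SE 0.22), each lowest of the 3 IL10R libraries in the one labelled IL10R 2.

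The promoters of several of these genes are shown because their transcripts rose together and because they hold the letters of known interferon motifs. The windows are the 250 bases before the annotated start, 5′ to 3′ on the gene's strand, from RefSeq on GRCm38.p6. In the first 4, capitals mark matches to the interferon-stimulated response element (ISRE) as GAAANNGAAA on either strand. In the last 2 they mark the gamma-activated site (GAS) as TTCNNNGAA. The 3 ISRE matches of Isg15 overlap in 1 run.
Gbp2: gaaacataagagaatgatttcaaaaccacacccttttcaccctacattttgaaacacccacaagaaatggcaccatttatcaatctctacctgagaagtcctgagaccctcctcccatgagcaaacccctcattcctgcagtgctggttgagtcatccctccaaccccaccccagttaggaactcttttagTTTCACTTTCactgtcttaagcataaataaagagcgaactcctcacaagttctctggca
Irgm1: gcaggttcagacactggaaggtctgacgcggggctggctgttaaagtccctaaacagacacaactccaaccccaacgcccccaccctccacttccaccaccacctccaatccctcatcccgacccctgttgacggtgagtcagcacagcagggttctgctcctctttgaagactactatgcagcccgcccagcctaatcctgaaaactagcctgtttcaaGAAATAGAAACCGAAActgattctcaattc
Isg15: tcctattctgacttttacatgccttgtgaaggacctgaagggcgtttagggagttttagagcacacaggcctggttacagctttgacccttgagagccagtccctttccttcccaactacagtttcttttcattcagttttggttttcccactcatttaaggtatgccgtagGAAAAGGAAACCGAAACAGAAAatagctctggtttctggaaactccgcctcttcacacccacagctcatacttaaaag
Socs1: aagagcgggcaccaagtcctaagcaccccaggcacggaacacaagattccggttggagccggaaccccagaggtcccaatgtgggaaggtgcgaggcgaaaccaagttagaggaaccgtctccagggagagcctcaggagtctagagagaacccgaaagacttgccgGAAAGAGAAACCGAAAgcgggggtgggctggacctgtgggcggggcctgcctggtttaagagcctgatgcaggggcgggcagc
Gbp5: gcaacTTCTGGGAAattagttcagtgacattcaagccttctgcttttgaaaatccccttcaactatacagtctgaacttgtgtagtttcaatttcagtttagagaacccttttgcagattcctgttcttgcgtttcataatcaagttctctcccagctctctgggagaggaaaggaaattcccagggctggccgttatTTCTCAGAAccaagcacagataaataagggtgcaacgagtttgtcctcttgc
Irf1: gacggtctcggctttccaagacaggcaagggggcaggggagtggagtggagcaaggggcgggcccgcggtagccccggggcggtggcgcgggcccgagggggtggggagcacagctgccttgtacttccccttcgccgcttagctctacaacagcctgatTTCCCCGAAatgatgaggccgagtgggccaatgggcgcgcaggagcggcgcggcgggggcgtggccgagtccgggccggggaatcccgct
The matches began 59 bases before the start in Gbp2 (chr3:142620413-142620662, plus strand), 30 in Irgm1 (chr11:48871421-48871670, minus strand), 78 in Isg15 (chr4:156200819-156201068, minus strand) and 83 in Socs1 (chr16:10785537-10785786, minus strand). Gbp5 (chr3:142496684-142496933, plus strand) held 2 GAS matches, the first 245 bases before the start, and Irf1 (chr11:53769764-53770013, plus strand) held 1, at 90 bases. All of these genes were called higher.

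A window was found for 15 of the 23 called members of the interferon-gamma GTPase and type I interferon lists, and 11 of the 15 (73.3%) held an ISRE or a GAS match. Both strands were searched, and a match of one motif may share bases with a match of the other. Over all called genes with a window the share was 20.5% (49 of 239) among the higher and 7.69% (16 of 208) among the lower. It was 8.01% (420 of 5242) over all tested genes and 9.83% (2656 of 27025) over all genes of the promoter table. The ISRE letters alone were in 11.7% of the higher windows, 2.88% of the lower and 2.67% of all tested. The kB motif GGGNNTTTCC was in 3.35%, 0% and 1.58% and the C/EBP motif TTGCNNAA in 13.4%, 7.69% and 7.99%. These shares describe letters in a window and were not tested.

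Type I interferon-stimulated genes rose in part, 11 of 27 tested with 0 lower and a median change of 0.97. The count was 7 without CXhet 2 or IL10R 3 and 14 without CXhet 1. Zbp1, a sensor of Z-form nucleic acids that can start necroptosis, stood at 115, 71.8 and 59.8 in CXhet and 352, 658 and 378 in IL10R and rose by 2.47 (SE 0.31). Rsad2, the antiviral enzyme viperin, rose by 2.12 (SE 0.26), from 61.5, 81.1 and 52.8 to 373, 211 and 289. Isg15, a ubiquitin-like modifier, rose by 1.86 (SE 0.30), and Uba7, the enzyme that activates ISG15 for conjugation, by 1.43 (SE 0.22). Oas3 rose by 1.91, Oasl2 by 1.59 and Rtp4 by 1.08. Of the 30 tested genes of the constitutive proteasome and ubiquitin list only Uba7 and Ubd were called by limma, and Uba7 kept its call in all 6 fits that left out a library. Ubd, another interferon-induced ubiquitin-like modifier, stood at 6.84, 1.86 and 9.73 in CXhet and 62.1, 525 and 63.5 in IL10R, far higher in the library labelled IL10R 2 than in the other 2. It lost its call without CXhet 2 (limma adjusted p = 0.0787), without IL10R 3 (0.0546) and with genes under the median level left out (0.0843).

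Genes of MHC class I presentation were called higher in 13 of 19 tested, with 0 lower and a median of 1.41; the count was 6 without CXhet 2 and 12 without the library labelled IL10R 2. Tap1, which carries peptides into the endoplasmic reticulum, stood at 356, 239.5 and 174 in CXhet and 1375, 1631 and 1233 in IL10R and rose by 2.51 (SE 0.27, limma adjusted p = 0.00135). The immunoproteasome subunits Psmb8 and Psmb9 rose by 1.78 (SE 0.28) and 2.08 (SE 0.31). H2-Q7 has the same 6 values as its near copy H2-Q9, so its rise of 2.90 cannot be given to either gene. Of 16 class II presentation genes, 3 were called higher (H2-Oa, Ciita and Ctss), with a median of 0.53, and 0 by limma without CXhet 2, CXhet 3 or IL10R 3. Ciita and Ctss also lost their calls without IL10R 1 (limma adjusted p = 0.107 and 0.0512) and without the library labelled IL10R 2 (0.0848 and 0.0951). Ciita lost its call with quantile normalization (0.0503) and in limma without trend or robust variances (0.0611) as well.

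**Figure D2:**
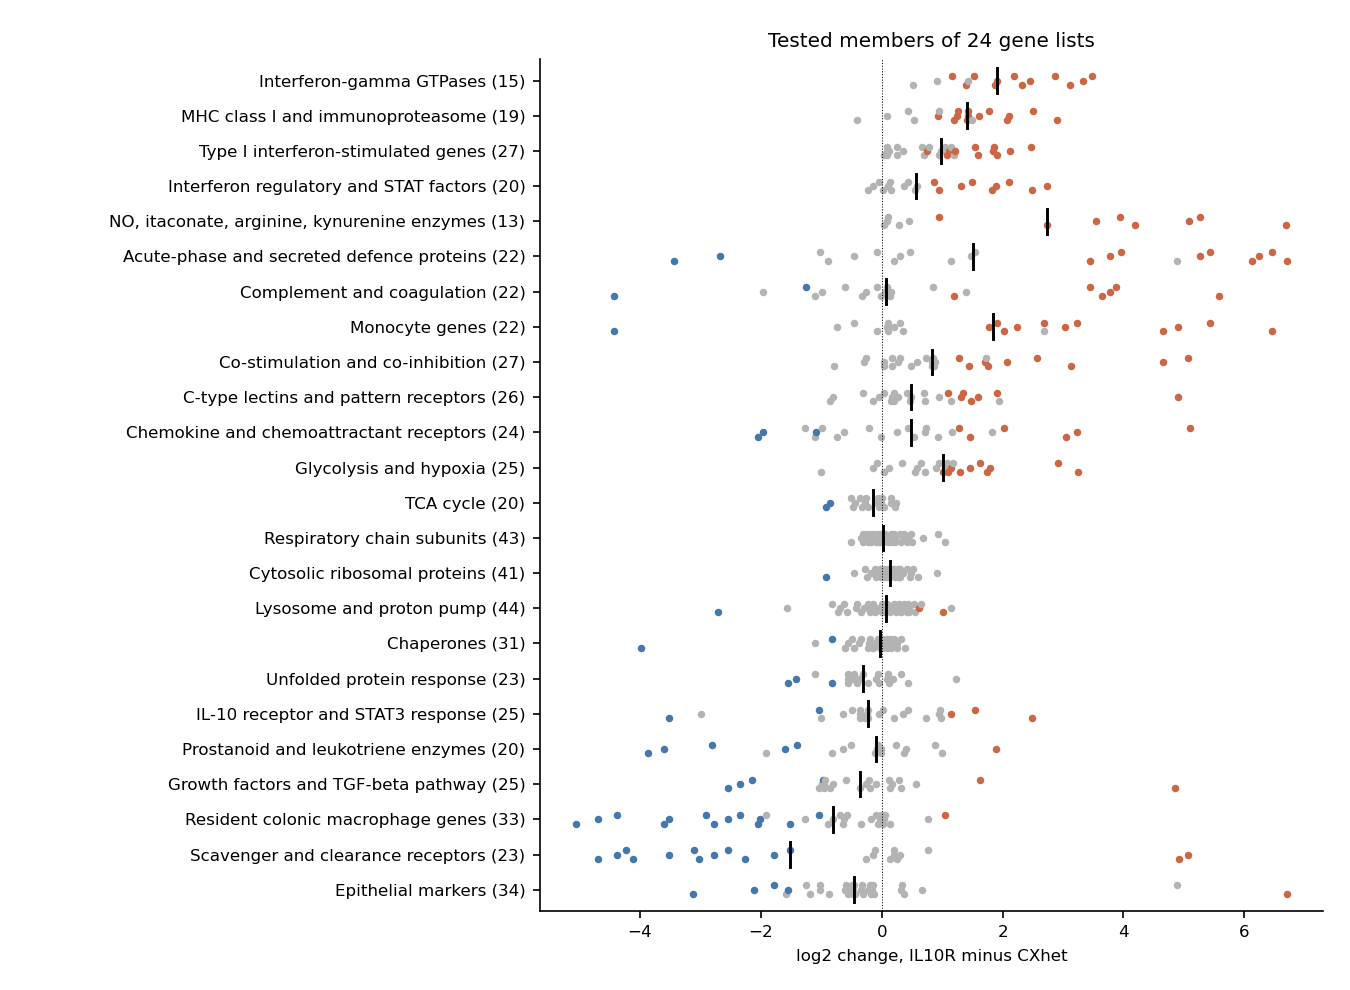
log2 change (IL10R minus CXhet, x axis) of every tested member of 24 gene lists (rows, with the number tested). Each point is a gene, orange where called higher, blue where called lower and grey where not called. Black bars are medians, from 2.74 for the nitric oxide and itaconate list, which includes the transporter gene Slc7a11, to -1.51 for the scavenger receptors.

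Enzymes that turn arginine, tryptophan and cis-aconitate into antimicrobial or immunomodulatory products were listed together with the transporter gene Slc7a11. The list held the highest median of those in the plot, 2.74 over 13 tested genes. That median is the change of Slc7a11 itself, whose call was lost without IL10R 3 (limma adjusted p = 0.0651). Of the 13 genes 8 were called higher and 0 lower. The count was 3 without IL10R 3 and 7 if the library labelled IL10R 2 was left out. Nos2, the inducible nitric oxide synthase, stood at 8.55, 4.66 and 4.17 in CXhet and 337, 1379.5 and 765 in IL10R, a rise of 6.69 (SE 0.47, limma adjusted p = 0.000354). Irg1, which makes itaconate from cis-aconitate, stood at 15.4, 5.59 and 2.78 in CXhet and 251, 349.7 and 297 in IL10R. The IL10R libraries of Irg1 lay within a narrow range, while Nos2 in the library labelled IL10R 2 was several times its level in IL10R 1.

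Ass1, which rebuilds arginine from citrulline, stood at 63.2, 80.2 and 72.3 in CXhet and 364, 2813 and 592 in IL10R and rose by 3.54 (SE 0.62). Its CXhet libraries were tight and the library labelled IL10R 2 was far above the other 2, and the call was lost without CXhet 2 (limma adjusted p = 0.0556) and CXhet 3 (0.066). Arg1 and Arg2 encode arginases, which compete with the nitric oxide synthase for arginine. Arg1, chosen here after its values were seen, stood at 10.3, 3.73 and 8.34 in CXhet and 21.2, 453 and 200.1 in IL10R, with IL10R 1 only slightly above CXhet. It was called with all libraries (change 3.95, limma adjusted p = 0.0456), and of the 6 fits that left out a library only the one without IL10R 1 kept the call (0.0711 to 0.165 in the others). Arg2 rose by 4.19 (SE 0.63) and lost its call without IL10R 3 (adjusted p = 0.0554). Ido1, which opens the tryptophan to kynurenine route, stood at 5.13, 1.86 and 2.78 in CXhet and 63.5, 433 and 114 in IL10R, and its call was lost without IL10R 3 (limma adjusted p = 0.0589) and with genes under the median level left out (0.0628). Gch1, the first enzyme of the cofactor that nitric oxide synthases need, was also chosen after its values were seen and rose by 0.94 (SE 0.19, limma adjusted p = 0.0201), a call lost without CXhet 2 (0.097) and IL10R 3 (0.0584).

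Of 22 tested acute-phase and secreted defence proteins, 9 rose, 2 fell and the median was 1.51. The higher count lay between 6 (without IL10R 3) and 11 (without the library labelled IL10R 2), and the lower count was 0 without CXhet 2. Lrg1, a leucine-rich glycoprotein of the acute phase, stood at 12, 28 and 33.4 in CXhet and 1833, 1028 and 2425 in IL10R and rose by 6.13 (SE 0.41, limma adjusted p = 0.000274). Saa3, a serum amyloid A, stood at 73.5, 33.6 and 20.8 in CXhet and 805, 5591 and 5525 in IL10R, with IL10R 1 well under the other 2. Slpi, a protease inhibitor of mucosal surfaces, rose by 3.96 (SE 0.51), from 34.2, 20.5 and 27.8 to 205, 1041 and 393. Hp, haptoglobin, rose by 6.46 (SE 0.96).

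Genes of the complement and coagulation list were called in both directions. C3, the central complement component, stood at 147, 121 and 111 in CXhet and 1365, 2895 and 1307 in IL10R, a rise of 3.77 (SE 0.31), and Cfb, the protease of the alternative pathway, rose by 3.44 (SE 0.44). F10, the zymogen of coagulation factor X, stood at 8.55, 9.32 and 6.95 in CXhet and 201, 1285 and 360.1 in IL10R and rose by 5.58 (SE 0.57, limma adjusted p = 0.00122). Procr, the endothelial protein C receptor that favours anticoagulation, rose by 3.65 (SE 0.35). In the other direction F13a1, the subunit that crosslinks fibrin, stood at 1055, 1416 and 823 in CXhet and 74.1, 27.2 and 55.3 in IL10R, with no overlap, and fell by 4.44 (SE 0.35). In all 6 of 22 tested members rose (27.3%) and 2 fell (9.09%), against 4.57% and 4.12% over all tested genes, with a median of 0.07. The lower count was 1 without CXhet 1, CXhet 2, CXhet 3 or IL10R 3. The initiator chain C1qa, given above, was not among the calls.

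Monocyte genes were examined in cells that the sort had chosen for lack of Ly6c on their surface. Of 22 tested monocyte genes, 11 rose and 1, F13a1, fell, and the median was 1.84. The higher count was 6 without IL10R 3 and 10 without the library labelled IL10R 2. Ly6c1 stood at 37.6, 70.8 and 103 in CXhet and 454, 709.8 and 500.1 in IL10R and rose by 3.04 (SE 0.35). Ccr2, the receptor through which monocytes leave the marrow, stood at 75.2, 28 and 62.5 in CXhet and 171, 214 and 262 in IL10R and rose by 2.03 (SE 0.35). The summed level of the 25 listed monocyte genes overlapped between groups, at 0.399%, 0.464% and 0.433% of signal in CXhet and 0.404%, 0.636% and 0.447% in IL10R. Neutrophil markers summed to 0.0256% to 0.0376% of signal in CXhet, against 0.0438% to 0.0522% in IL10R, and S100a9 among them lost its call without IL10R 3 (limma adjusted p = 0.0599). The part of other cells in these rises was not tested.

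Clec4e, the Mincle receptor for mycobacterial glycolipids, stood at 30.8, 25.2 and 12.5 in CXhet and 522, 1102 and 548 in IL10R and rose by 4.91 (SE 0.38). Of 26 C-type lectins and pattern receptors, 7 rose and 0 fell (4 without CXhet 2), among them Clec7a, the beta-glucan receptor, by 1.31 and the peptidoglycan sensors Nod1 and Nod2 by 1.59 and 1.91. Fpr2, a receptor for formyl peptides, stood at 53, 29.8 and 19.5 in CXhet and 144, 707 and 281 in IL10R, highest in the library labelled IL10R 2, and lost its call without CXhet 2 (limma adjusted p = 0.0556) and CXhet 3 (0.0567). Gpr183, a receptor for oxysterols, and P2ry12, a receptor for ADP, went the other way. Gpr183 fell by 1.97 (SE 0.28), from 419, 399.8 and 453 to 169, 76.4 and 95.3. P2ry12 fell by 2.05 (SE 0.33) and lost its call without CXhet 2 (limma adjusted p = 0.0516).

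Among 16 tested chemokine ligands 3 rose (Cxcl9, Cxcl10 and Ccl5) and 2 fell (Ccl2 and Pf4), and the higher count was 3 in each of the 6 fits that left out a library. Cxcl9, a ligand of CXCR3, stood at 265, 229 and 101 in CXhet and 3201, 5430.1 and 4654 in IL10R and rose by 4.55 (SE 0.37), and Cxcl10, another ligand of that receptor, rose by 1.74 (SE 0.23). Ccl5 stood at 285, 134 and 98.7 in CXhet and 4914, 21279.8 and 13919 in IL10R. Ccl2, the ligand of CCR2, stood at 1161, 938 and 788 in CXhet and 417, 84.2 and 177 in IL10R and fell by 2.36 (SE 0.49); that call was lost without CXhet 1, 2 or 3 or IL10R 3 (limma adjusted p = 0.0618, 0.0901, 0.0731 and 0.0636). Pf4, platelet factor 4, fell by 2.91 (SE 0.33), from 5876, 6457 and 4388 to 1025, 440.4 and 859.

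Inhibitory regulators were among the genes that rose. Socs1, which blocks the kinases of interferon receptors, stood at 58.1, 27 and 38.9 in CXhet and 172, 324 and 213 in IL10R and rose by 2.49 (SE 0.32). Il18bp, a secreted trap for IL-18, stood at 113, 72.7 and 38.9 in CXhet and 566, 712 and 791 in IL10R and rose by 3.29 (SE 0.35). Il1rn, the IL-1 receptor antagonist, rose by 1.54 (SE 0.23) and Cd274, which encodes PD-L1, by 1.75 (SE 0.22). In the list of IL-10 receptor and STAT3 response genes 3 of 25 rose (Socs1, Il1rn and Tnip3) and 2 fell (Cd163 and Arid5a), with a median of -0.23. Tnip3, Cd163 and Arid5a lost their calls without CXhet 2 (limma adjusted p = 0.0684, 0.0625 and 0.0787), and Tnip3 and Arid5a without IL10R 3 (0.0507 and 0.07). Socs3, a STAT3 target, overlapped at 3302, 2808 and 2517 in CXhet and 3225, 2858 and 2615 in IL10R, and the cytokine gene Il10 itself overlapped at 393, 215 and 121 in CXhet and 292, 63.5 and 141 in IL10R; neither was called, and both were chosen after their values were seen.

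Receptors that restrain or tune myeloid cells rose with them. Cd300lf stood at 15.4, 5.59 and 2.78 in CXhet and 210.2, 358 and 235 in IL10R and rose by 5.07 (SE 0.51). Clec12a, an inhibitory lectin that recognises uric acid crystals, rose by 3.14 (SE 0.33) and Pilra by 2.07 (SE 0.30). In the co-stimulation and co-inhibition list 9 of 27 rose and 0 fell, with a median of 0.83, and the count lay between 7 (without IL10R 1) and 12 (without CXhet 1). In the cell death and survival list 4 of 25 rose and 0 fell, with a median of 0.43. Ripk3, the kinase of necroptosis, stood at 82, 112 and 84.8 in CXhet and 260.5, 382 and 302 in IL10R, a rise of 1.74 (SE 0.21). Gsdmd, the pore former of pyroptosis, rose by 1.27 (SE 0.19) and Bak1, a pore former of apoptosis, by 1.23 (SE 0.20). Bcl2a1a, an antiapoptotic relative, rose by 2.13, but it has near-identical copies. How reads that fit several places were treated is not given in the sources used here, so this value is uncertain. One copy, Bcl2a1b, lost its call without CXhet 1, CXhet 3, IL10R 1 or the library labelled IL10R 2 (limma adjusted p = 0.0562, 0.0888, 0.0588 and 0.0572).

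In the IL-1 family and inflammasome list 4 of 17 rose (Il1a, Il1rn, Il18bp and Gsdmd) and 1 fell (Txnip), with a median of 0.36. Il1a, an IL-1 that acts also as an alarm signal from dying cells, stood at 42.7, 27 and 19.5 in CXhet and 177, 315 and 165 in IL10R and rose by 2.83 (SE 0.34). The 4 rises were called in each fit that left out a library, while Txnip lost its call without CXhet 2 (limma adjusted p = 0.0594). Of 27 immediate-early factors, which macrophages switch on within minutes of a stimulus, 4 fell (Jund, Atf3, Egr1 and Klf4), 0 rose and 23 were not called, with a median of -0.52. Egr1 stood at 4188, 4076 and 4209 in CXhet and 2483, 987 and 1319 in IL10R, and all 4 calls were lost without CXhet 1, CXhet 2, CXhet 3 or IL10R 3 (limma adjusted p = 0.0563 to 0.141). Jund and Atf3 also lost theirs without the library labelled IL10R 2 (limma adjusted p = 0.0811 and 0.0769).

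Several cytokine and receptor genes lay below the filter, so they were read from the fit of all 9022 genes, in which 790 (8.76%) were called, 403 higher (4.47%). The genes of this paragraph were not tested in the fits that left out a library. Il23a had at most 6 reads in a CXhet library and Il12b at most 4. Il23a, the p19 subunit of IL-23, stood at 10.3, 2.80 and 1.39 in CXhet and 58.2, 54.4 and 45.9 in IL10R, and Il12b, the p40 subunit, at 3.42, 0.932 and 5.56 in CXhet and 75.4, 50.5 and 25.9 in IL10R. Neither overlapped, and the changes were 3.42 (SE 0.58, limma adjusted p = 0.0076) and 3.51 (SE 0.61, 0.00852). The next genes were chosen after their values were seen. Il12rb1, the receptor chain that binds p40, stood at 5.13, 4.66 and 0 in CXhet and 51.6, 63.5 and 57.7 in IL10R, a change of 3.99 (SE 0.66, limma adjusted p = 0.00679). Ltb, which encodes lymphotoxin beta, stood at 6.84, 6.52 and 4.17 in CXhet and 82, 92 and 61.2 in IL10R (change 3.48, limma adjusted p = 0.000965). Cxcl11, one more ligand of CXCR3, stood at 1.71, 3.73 and 4.17 in CXhet and 45, 67.4 and 61.2 in IL10R, and Cxcl5, which draws neutrophils, at 13.7, 5.59 and 5.56 in CXhet and 79.3, 110.1 and 95.3 in IL10R. Duoxa2, the maturation factor of an epithelial oxidase, stood at 1.71, 4.66 and 6.95 in CXhet and 75.4, 97.2 and 76.5 in IL10R. Thy1 and Klrk1, listed as T and NK cell markers, were also higher, with Klrk1 at 12, 11.2 and 1.39 in CXhet and 78, 81.6 and 67.1 in IL10R. Their part in the rise of Il12rb1 and Ltb was not tested.

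Metabolic genes were read as separate lists for glycolysis and mitochondria. Of 25 tested glycolysis and hypoxia genes, 10 rose, 0 fell and 15 were not called, with a median of 1.01 (5 higher without CXhet 2, 9 without the library labelled IL10R 2). Slc16a3, the lactate exporter, stood at 80.3, 59.7 and 48.6 in CXhet and 245, 962 and 455 in IL10R and rose by 2.92 (SE 0.44). Pfkp, a phosphofructokinase, rose by 1.45 (SE 0.19), Hk3, a hexokinase, by 1.75 (SE 0.27) and the hypoxia factor Hif1a by 1.15 (SE 0.19). Slc2a6, a hexose transporter, rose by 3.25 (SE 0.46), from 13.7, 13 and 9.73 to 114, 232 and 75.3. Pkm, the muscle-type pyruvate kinase gene, was chosen after its values were seen and stood at 1161, 1249 and 1518 in CXhet and 2318, 4351 and 3253 in IL10R. It rose by 1.30 (SE 0.27, limma adjusted p = 0.0209), a call lost without CXhet 2 (0.103) and IL10R 3 (0.0704).

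Of 43 respiratory chain subunits 0 were called by limma, and their median change was 0.02 (edgeR and DESeq2 also called 0, and 2 had an unadjusted limma p under 0.05 on the higher side and 1 on the lower). Of 20 genes of the tricarboxylic acid cycle 2 fell, Fh1 (fumarate hydratase) by 0.92 (SE 0.18) and Idh2 (the mitochondrial NADP-dependent isocitrate dehydrogenase) by 0.86 (SE 0.17), and both calls were lost without CXhet 2 (limma adjusted p = 0.0782 and 0.102) or CXhet 3 (0.066 and 0.0574). Idh2 also lost its call without IL10R 3 (0.0814). The median change was 0.13 over 41 genes of cytosolic ribosomal proteins and 0.07 over 44 lysosomal genes. Nampt, which makes the NAD precursor, rose by 1.55 (SE 0.21), from 186, 128 and 115 to 393, 403 and 447. Nr1h3, the oxysterol-sensing nuclear receptor LXR alpha, stood at 104, 65.2 and 90.3 in CXhet and 336, 361 and 337 in IL10R and rose by 2.00 (SE 0.21, limma adjusted p = 0.00122). Abcg1, a sterol exporter that LXR induces, rose by 1.19 (SE 0.21) and lost its call without CXhet 2 (limma adjusted p = 0.0591), and the fatty acid carrier Fabp5 rose by 2.44 (SE 0.34). In the list of lipid uptake, efflux and cholesterol synthesis 3 of 27 tested genes rose and 2 fell, with a median of 0.003. The part of LXR was not tested.

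Of 20 tested enzymes of eicosanoid metabolism 5 were called lower (25%, against 4.12% over all tested genes). Only 1 was called higher (5%, close to the 4.57% over all tested genes). The higher count was 0 without CXhet 2 or CXhet 3, and the lower count was 2 without CXhet 2. Ltc4s, which makes leukotriene C4, stood at 614, 616 and 427 in CXhet and 58.2, 46.6 and 30.6 in IL10R and fell by 3.6 (SE 0.27, limma adjusted p = 0.000403). Alox5, the 5-lipoxygenase upstream of all leukotrienes, stood at 173, 176 and 105.6 in CXhet and 9.26, 6.48 and 11.8 in IL10R and fell by 3.86 (SE 0.40). For these 2 genes the lowest CXhet library lay far above the highest IL10R library. Hpgd, which inactivates prostaglandins, stood at 424, 443 and 568 in CXhet and 155, 19.4 and 96.5 in IL10R and fell by 2.80 (SE 0.62), and the constitutive cyclooxygenase Ptgs1 fell by 1.59 (SE 0.32). The inducible cyclooxygenase Ptgs2 rose by 1.88 (SE 0.38), from 472, 193 and 189 to 755, 1389 and 834. The calls of Hpgd, Ptgs1 and Ptgs2 were lost without CXhet 2 (limma adjusted p = 0.102, 0.0717 and 0.0981). Hpgd and Ptgs1 also lost theirs without CXhet 1 (0.0638 and 0.0549) and IL10R 3 (0.0507 each), and Hpgd and Ptgs2 without CXhet 3 (0.12 and 0.0827).

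**Figure D3:**
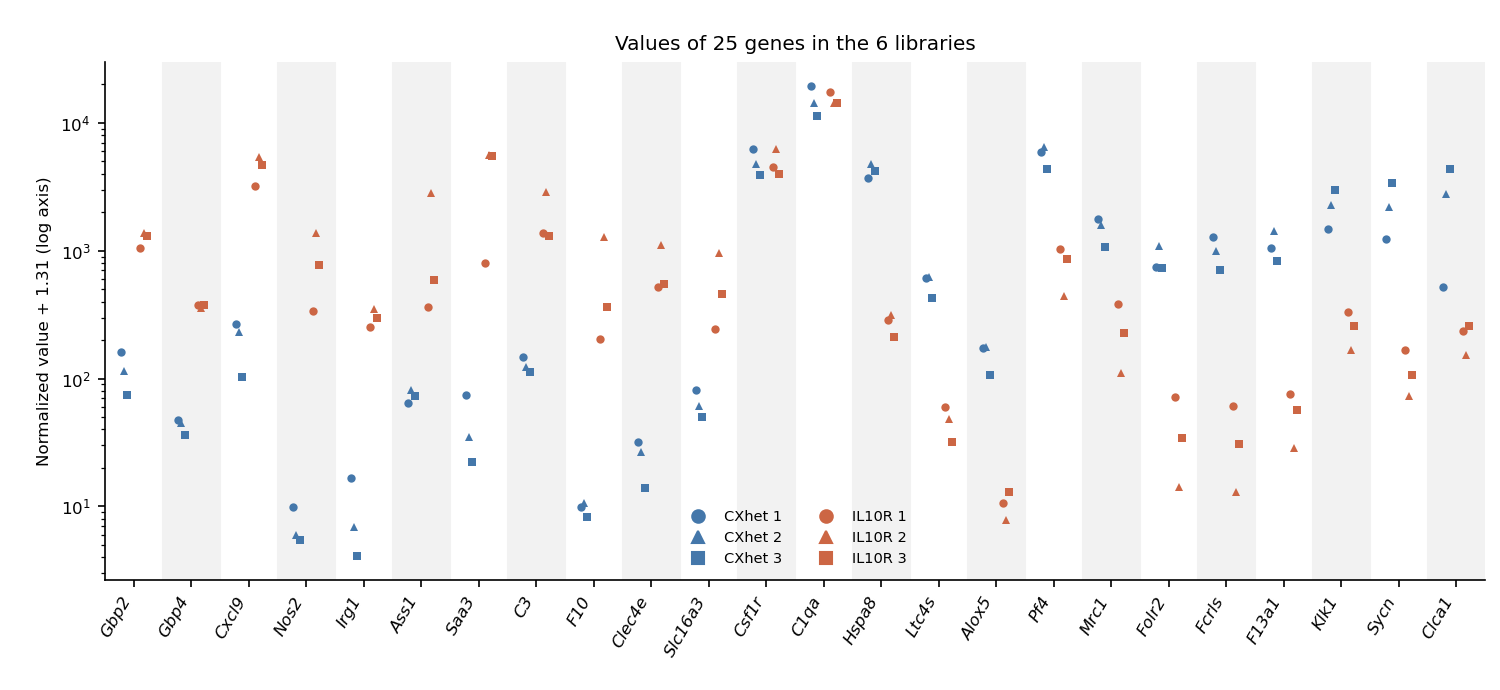
Normalized values plus 1.31 (y axis, log) of 24 genes in the 3 CXhet libraries (blue) and the 3 libraries labelled IL10R (orange), with a symbol for each replicate number. Gbp4 is tight within IL10R, Ass1 and F10 are highest in the library labelled IL10R 2, and Csf1r and C1qa overlap between the groups.

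Most called receptors with which macrophages clear dead cells, lipoproteins and haemoglobin were lower in IL10R. Of 23 tested scavenger and clearance genes, 12 fell and 2 rose, with a median of -1.51, and the lower count was 6 without CXhet 2 and 11 without the library labelled IL10R 2. Folr2, a folate receptor of resident macrophages, stood at 749, 1095 and 732 in CXhet and 70.1, 13 and 32.9 in IL10R and fell by 4.69 (SE 0.50). Cd36, a receptor for oxidised lipids, stood at 189.7, 268 and 208 in CXhet and 45, 11.7 and 31.8 in IL10R and fell by 3.03 (SE 0.42). Gas6, the bridge between dying cells and the TAM receptors, fell by 2.54 (SE 0.38) and the mannose receptor Mrc1 by 2.77 (SE 0.42). Fcna, a ficolin that opsonises sugars, fell by 4.12 (SE 0.55), from 449.5, 721 and 324 to 68.8, 13 and 18.8. For Folr2, Cd36, Gas6, Mrc1 and Fcna the lowest value was in the library labelled IL10R 2.

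Of 33 tested genes of resident colonic macrophages 13 fell and 1 rose, and the median was -0.81. The lower count was 8 without CXhet 2 and 15 without IL10R 1. The fall was uneven, since Csf1r and C1qa had overlapping levels while Fcrls, an Fc receptor-like scavenger protein, stood at 1287, 997 and 706 in CXhet and 59.5, 11.7 and 29.4 in IL10R and fell by 5.07 (SE 0.49). Dab2, an endocytic adaptor, fell by 2.01 (SE 0.26) and the carbonyl reductase Cbr2 fell by 4.01 (SE 0.55), from 2029, 2624 and 1503 to 272, 46.6 and 146. Cx3cr1, the fractalkine receptor by which gut macrophages are often traced, stood at 429, 254 and 265 in CXhet and 288, 46.6 and 149 in IL10R and was not called, overlapping in IL10R 1. The summed share of all listed resident genes was 6.34%, 4.62% and 4.03% in CXhet and 4.51%, 3.58% and 3.78% in IL10R, so IL10R 1 lay within the range of CXhet. Mgl2, a lectin shared with dendritic cells, stood at 593, 491.2 and 418 in CXhet and 165, 41.5 and 25.9 in IL10R and lost its call without CXhet 2 (limma adjusted p = 0.0623) and CXhet 3 (0.0574).

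Single growth factor genes were called in either direction. Pgf, placental growth factor, stood at 459.8, 338 and 285 in CXhet and 74.1, 23.3 and 35.3 in IL10R and fell by 3.12 (SE 0.38). Inhba, the subunit of activin A, stood at 15.4, 7.46 and 15.3 in CXhet and 225, 669.7 and 380.1 in IL10R and rose by 4.85 (SE 0.41, limma adjusted p = 0.000485). Of 25 growth factor and TGF-beta genes 2 rose (8%) and 4 fell (16%), against 4.57% and 4.12% over all tested genes. Without CXhet 2 the counts were 1 and 1. Etv5, an ETS factor downstream of growth factor signals, fell by 1.77 (SE 0.27), and Rbpj, the nuclear effector of Notch, fell by 1.25 (SE 0.20). Hes1, a Notch target, fell by 0.98 (SE 0.22) but lost its call in 5 of the 6 fits that left out a library, all but the one without IL10R 1 (limma adjusted p = 0.0594 to 0.0911).

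Hspa8, the constitutive HSC70 chaperone, was among the abundant genes with the largest falls. It stood at 3712, 4786 and 4219.9 in CXhet and 284, 311 and 209 in IL10R, a change of -3.99 (SE 0.22, limma adjusted p = 0.000187), and at -4.10 without the library labelled IL10R 2. Of the other 30 tested chaperones 1 was called, Dnaja1, which fell by 0.81 (SE 0.16) and lost its call without CXhet 2 (limma adjusted p = 0.0838) and IL10R 3 (0.0651). The median of the list was -0.03. The heat-inducible Hspa1a overlapped at 7233, 6758 and 5998 in CXhet and 7122, 8872 and 6353 in IL10R, as did Hsp90ab1 at 2936, 3070.2 and 2951 in CXhet and 3281, 3291 and 2951 in IL10R. Both were chosen after their values were seen. The HSC70 gene has processed pseudogenes, and how the authors treated reads that fit several places is not given in the sources used here, so this value is uncertain.

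Secreted and enzymatic products known from digestive epithelia were among the genes that fell. Sycn, which encodes a protein of secretory granules, stood at 1224, 2204 and 3373 in CXhet and 167, 71.2 and 105.9 in IL10R and fell by 4.26 (SE 0.40). Klk1, tissue kallikrein, stood at 1469.9, 2286 and 2983 in CXhet and 329, 167 and 258 in IL10R and fell by 3.15 (SE 0.33). Cela1, an elastase, fell by 2.77 (SE 0.36), Sult1a1, a sulfotransferase, by 2.80 (SE 0.34) and the gut hormone Guca2a, guanylin, by 1.78 (SE 0.24). Clca1, secreted by goblet cells, stood at 518, 2765 and 4332 in CXhet and 235, 150.3 and 258 in IL10R, with CXhet 1 far under the other CXhet libraries, and lost its call without CXhet 2, CXhet 3, the library labelled IL10R 2 or IL10R 3 (limma adjusted p = 0.112, 0.0921, 0.0686 and 0.0584). Mptx1, a pentraxin of the gut, stood at 1049, 4540 and 4207 in CXhet and 434, 438 and 404 in IL10R and lost its call without CXhet 2 (limma adjusted p = 0.0691) and CXhet 3 (0.0706).

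The epithelial marker genes differed among themselves. Epcam, an epithelial adhesion molecule, stood at 540.1, 884 and 1088 in CXhet and 775, 585 and 811 in IL10R, and the keratin Krt8 at 1767, 2192 and 3112 in CXhet and 2274, 1548 and 2344 in IL10R. Both overlapped between the groups and neither was called. Of 34 tested epithelial markers 4 fell (Guca2a, Clca1, Fcgbp and Phgr1), 1 rose (Reg3g) and the median was -0.46. Fcgbp lost its call without CXhet 2 (limma adjusted p = 0.0736) and Phgr1 without CXhet 2, CXhet 3, the library labelled IL10R 2 or IL10R 3 (0.112, 0.0939, 0.0546 and 0.0651). In CXhet the median of these markers ran from -0.51 (CXhet 1) to 0.44 (CXhet 3) around the CXhet mean on the log2 scale, and in IL10R it stood at -0.25, -0.89 and -0.12. The part of epithelial RNA, or of its spread among the CXhet libraries, in the falls of Sycn, Klk1 and Cela1 was not tested. Without the library labelled IL10R 2 the markers held 4 rises and 2 falls, and without CXhet 2 it was 1 fall.

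The 3 libraries labelled IL10R were not alike. The library labelled IL10R 2 lay farthest from the mean of its group in 54.3% of tested genes, against 24.2% for IL10R 1 and 21.5% for IL10R 3. IL10R 1 and 3 differed by more than 2-fold in 1.43% of genes, while the library labelled IL10R 2 differed from them by that much in 11% and 9.15%. It held the highest IL10R value in 235 of the 309 called higher genes and the lowest in 216 of the 279 called lower genes. Counted over the called genes, the median distance from the CXhet mean on the log2 scale was 1.31, 1.83 and 1.39 in IL10R 1, 2 and 3 for the higher genes and -1.12, -1.82 and -1.42 for the lower ones.

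Not all gene groups shared that order. The interferon-gamma GTPases stood at a median of 1.96, 1.94 and 2.07 above the CXhet mean, so the 3 libraries lay together. Resident macrophage genes stood at -0.29, -1.75 and -0.62, with the library labelled IL10R 2 far below. The nitric oxide and itaconate list stood at 1.44, 3.21 and 2.64, and acute-phase genes at 1.94, 1.14 and 1.48, where IL10R 1 was highest.

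**Figure D4:**
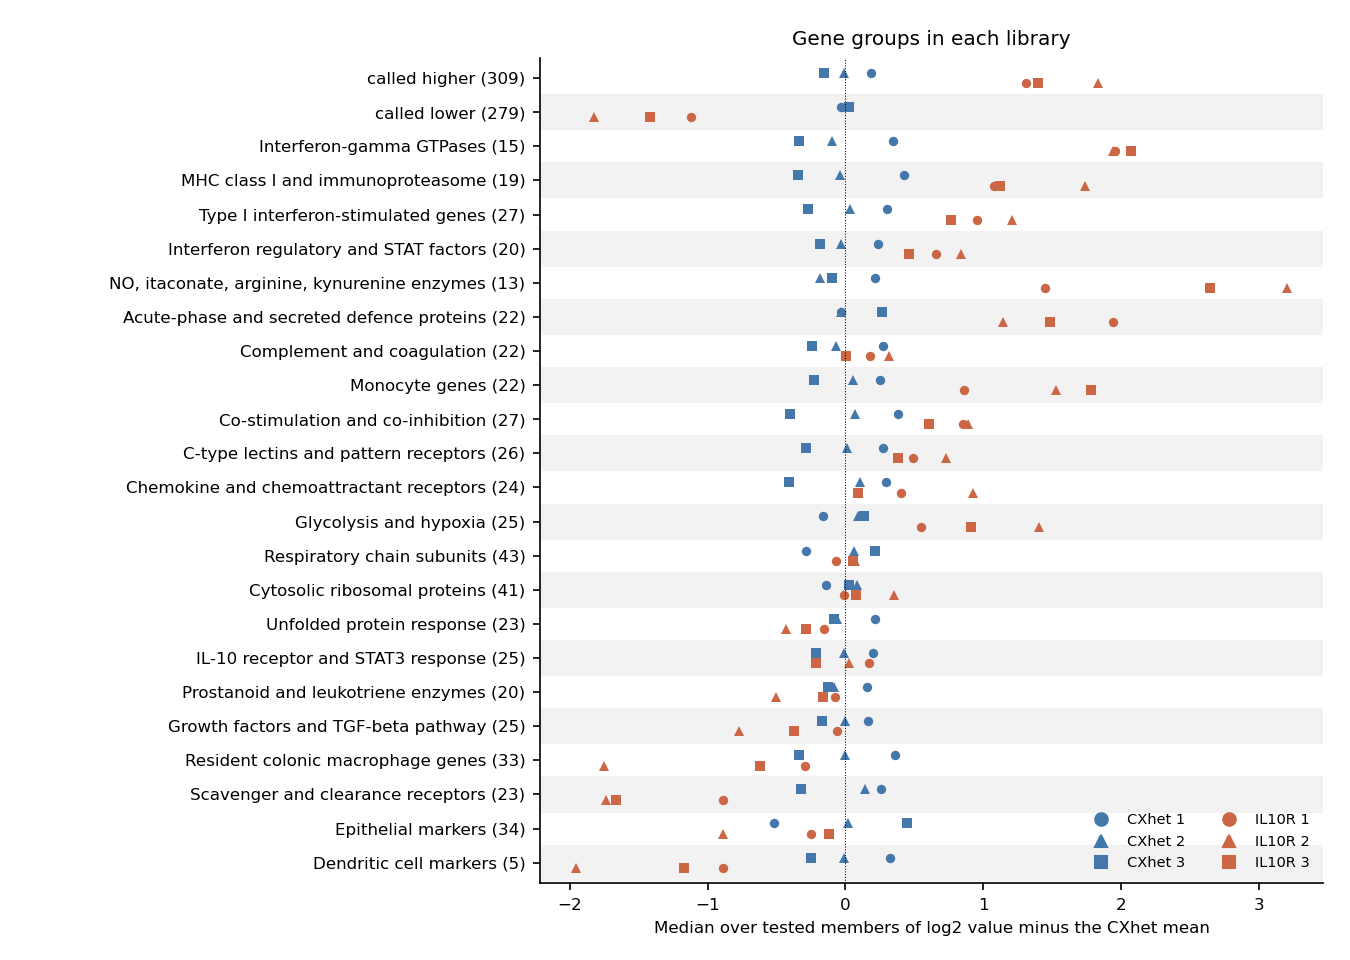
Median over the tested members of a gene group (rows, with the number tested) of the log2 value minus the CXhet mean (x axis), for each CXhet library (blue) and each library labelled IL10R (orange). The interferon-gamma GTPases hold the 3 IL10R libraries together, while resident macrophage genes and scavenger receptors spread them from -0.29 to -1.75 and from -0.89 to -1.73.

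The genes with the widest range among the IL10R libraries show the same division. Reg3g and Reg3b encode antibacterial lectins of the gut epithelium. Reg3g stood at 3.42, 37.3 and 16.7 in CXhet and 3244, 212 and 5453 in IL10R, and Reg3b at 13.7, 55.9 and 59.8 in CXhet and 4056, 69.9 and 4662 in IL10R, so both were high in IL10R 1 and 3 and low in the library labelled IL10R 2. Reg3g was called, but its call was lost without CXhet 1, CXhet 3, IL10R 1 or IL10R 3 (limma adjusted p = 0.0507, 0.109, 0.0605 and 0.0584). Reg3b passed only without the library labelled IL10R 2 (adjusted p = 0.000331) among the 6 limma fits that left out a library. With all 6 libraries it was called by edgeR (6.05, adjusted p = 0.0225), by DESeq2 (6.08, adjusted p = 0.000223) and by limma with array weights (6.02, adjusted p = 0.0139). Ly6c2 ran the other way at 56.4, 87.6 and 8.34 in CXhet and 60.8, 841 and 251 in IL10R, as did Clec4d at 113, 114 and 61.2 in CXhet and 132, 1218 and 285 in IL10R. The monocyte chemokine Ccl7 stood at 740.1, 750.3 and 456 in CXhet and 423, 27.2 and 128 in IL10R and the collagen gene Col3a1 at 374, 291 and 655 in CXhet and 379.5, 75.1 and 798 in IL10R, both lowest in the library labelled IL10R 2. Ly6c2, Clec4d, Ccl7 and Col3a1 were not called, but without IL10R 1 the first 3 were (limma adjusted p = 0.043, 0.0252 and 0.011).

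The other 2 tables hold deficient and control macrophages of other libraries from the same sort, each table normalized on its own. Per the labels, the rescue libraries used here came from untreated mice of 6 to 7 weeks. The neutrophil libraries came from bone marrow chimeras at 4 weeks after chimerism, with no age given. Their treatment label names injection of an antibody to Ly6g for ko_igg and wt alike, while igg in a title is not explained. Mice and treatment thus differ from those of the first table. In the rescue table, 5 libraries titled IL10R against 2 titled CX, 173 of 234 genes called higher here (73.9%) had a change above 0, where 51.2% of all genes tested in both did, and 221 of 269 called lower (82.2%, against 48.8%) had one below 0. In the neutrophil table, 3 libraries titled ko_igg against 4 titled wt, the counts were 219 of 255 (85.9%, against 54.4%) and 214 of 223 (96%, against 45.6%). The tables differ in size of change, with a median of 0.33 and 0.75 for the genes called higher and -0.54 and -0.93 for those called lower. The differences between tables were not tested.

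Medians of gene groups differed between the tables, each taken over the members that passed the filter of its own table. Members here, in the rescue table and in the neutrophil table numbered 15, 14 and 14 for the interferon-gamma GTPases. They numbered 25, 20 and 24 for glycolysis, 27, 22 and 20 for type I genes and 22, 16 and 17 for monocyte genes. For the nitric oxide and itaconate list they numbered 13, 8 and 10, and for co-stimulation and co-inhibition 27, 24 and 20. The part of the missing members in the differences below was not tested. The interferon-gamma GTPases had medians of 1.90 here, 1.20 in the rescue table and 1.43 in the neutrophil table. Glycolysis genes stood at 1.01, 0.28 and 1.02. Type I interferon-stimulated genes stood at 0.97, -0.11 and 0.17, and monocyte genes at 1.84, 0.03 and 0.28. The nitric oxide and itaconate list stood at 2.74, -0.24 and 0.82, and co-stimulation and co-inhibition at 0.83, -0.45 and 0.10. Single genes followed either pattern, with Nos2 at 6.69, 6.47 and 5.50, Lrg1 at 6.13, 5.41 and 6.36 and Fcrls at -5.07, -3.58 and -4.59. Hspa8 stood at -3.99, -2.38 and 0.51, Isg15 at 1.86, -0.18 and 0.16 and the Fc receptor Fcgr4 at 1.88, -0.47 and -0.10. Fcgr4 lost its call here without CXhet 2 (limma adjusted p = 0.06).

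**Figure D5:**
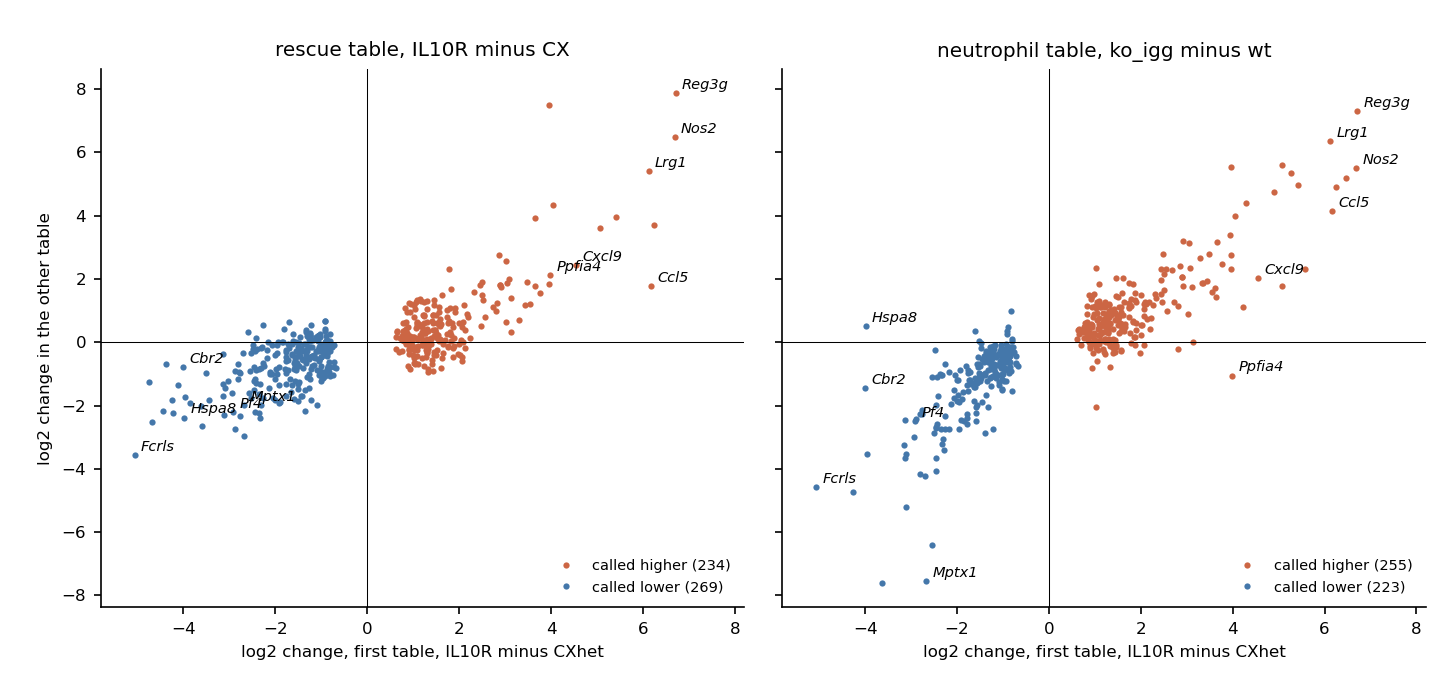
log2 change of the genes called in the first table (x axis) against their log2 change in the rescue table (left, IL10R minus CX) and the neutrophil table (right, ko_igg minus wt). Each point is a gene, orange where called higher and blue where called lower; points at the upper right and lower left have the same direction in both tables, as 173 of 234 and 221 of 269 do on the left.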

How the data were processed

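RNA from sorted colonic macrophages was captured with oligo-dT and amplified linearly by in vitro transcription, per the labels' protocols. The submitters' processing notes name HISAT 0.1.6, HOMER, bcl2fastq and mm9; their roles, the annotation, strand use and treatment of reads with several matches were not given in the sources used here. The deposited values are a signal, gene reads scaled by a factor of each library: dividing by each library's smallest step gave whole reads for 100% of values in each of the 6 libraries (tolerance 0.01). The table has 15398 rows without a gene name and number, which were left out, and 0 columns that could not be mapped to a sample. Since the authors divided every library by a factor and gave no length correction, levels of different genes are not comparable.

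Genes in the lower quartile of mean level were left out (25%), log2(value + 1.31) was taken, and limma 3.58.1 in R 4.3.3 was fitted with a trend and robust variances, with Benjamini-Hochberg adjusted p under 0.05 as the threshold. Each library's smallest nonzero value was taken, and their median served as pseudocount. edgeR 4.0.16 (quasi-likelihood) and DESeq2 1.42.0 were run on the recovered reads as alternatives, beside other pseudocounts, filters, scalings and array weights and each library left out. The fits were tested on simulated data. Figures were drawn with Python 3.11.15 and matplotlib 3.10.9. No 2 libraries agreed within sampling noise.

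The members and gene lists were chosen with earlier results of these data known. Named genes were Il10ra, Il23a and Il12b; the 25 highest and 25 lowest changes above the median level without overlap between groups; up to 6 called members per list; markers as levels; and the 10 genes with the widest range among IL10R libraries. The 10 steadiest genes were also found but are not named, and 1 further item is not reported here. Promoter windows were matched by symbol in RefSeq on GRCm38.p6, for 239 of the 309 genes called higher and 208 of the 279 called lower; no coordinate of the authors' build was used. The other 2 tables were fitted separately, each within itself.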

Additional observations from a re-analysis of the deposited data

How the results depend on the processing

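The 588 calls (309 higher, 279 lower) became 947 with DESeq2 (488 and 459) and 1803 with array weights (865 and 938). Leaving out 1 library gave 200 to 588 calls, 136 to 304 of them higher and 64 to 308 lower, lowest without CXhet 2; without CXhet 3 there were 273 and without IL10R 3 there were 295. The cause of these differences in count was not tested. The higher share of calls was 52.6%, 68% without CXhet 2 and 61.2% without CXhet 3. The other settings run (pseudocounts, filters, scalings, edgeR, no variance trend) gave 441 to 790. None of the 588 calls reversed in any of the 17 alternatives. Of 188 named genes that were called, 102 kept their call in each alternative that tested them. Col3a1, not called, went from -0.54 to 0.75 with array weights, and from -1.29 (without IL10R 3) to 0.41 (without the library labelled IL10R 2) when 1 library was left out. Il10ra passed with array weights and without the library labelled IL10R 2.

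Whether replicate numbers pair the libraries could not be settled from 3 libraries per group. The correlations of same-numbered deviations were -0.058, 0.151 and 0.354, and no label ties the numbers to animals or days. A fit with the replicate number as a block gave 808 calls (408 higher, 400 lower), 561 of them among the 588. Each library correlated best with its own number, apart from those numbered 1. Depth, 1458726 to 2487074 reads per library, makes 1 read worth 0.932 to 1.71 of the normalized scale, so low values rest on few reads.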
